A study of Mus musculus with 4 samples.

Results

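The nuclear genes of the respiratory chain were described in brown adipose tissue (BAT) of mice in which the integrated stress response (ISR) was switched on by a drug. The genes were chosen by name: every gene on the array whose symbol starts with Nduf, Uqcr or Cox4 to Cox8, together with Sdha, Sdhb, Sdhc, Sdhd, Cyc1 and Cycs. This gave 78 of the 20145 genes that could be named on the array, measured by 101 of its 55681 probes. They were 37 subunits and 8 assembly factors of complex I, 4 subunits of complex II, 9 of complex III, cytochrome c, 11 ubiquitous subunits of complex IV, 3 isoforms of complex IV subunits known from muscle and 5 other isoforms of restricted expression. The rule used names and no measured value, but it was set with earlier results of these data known. In total 76 of the 78 genes were well above background on all 4 arrays, and Cox7b2 and Cox8c, known from testis, were not well above background on any array.

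The respiratory chain sits in the inner mitochondrial membrane and passes electrons to oxygen. Complex I takes them from NADH and complex II from succinate, coenzyme Q and cytochrome c carry them on to complex III and complex IV, and complexes I, III and IV pump protons. In most tissues ATP synthase uses the returning protons to make ATP, and in brown fat UCP1 lets them back without ATP synthesis, so that the energy is released as heat. In the ISR, phosphorylation of eIF2α lowers the rate of translation and raises translation of the transcription factor ATF4.

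All 4 mice were male mAP2-Fv2E-PERK transgenic (Tg) mice of the C57BL/6N strain, in which the mouse aP2 (Fabp4) promoter drives Fv2E-PERK, the kinase domain of PERK joined to a domain that the synthetic ligand AP20187 (AP) dimerizes. This promoter is also active in macrophages, so the transgene is not limited to adipocytes. Vehicle (ethanol, PEG-400 and Tween-20 in water) was injected intraperitoneally into 2 mice and AP into 2, at a dose that the labels give as 1 ng/g and the legend of the study gives otherwise, and BAT was taken 12 h later. The control mice carried the transgene too, and no mouse without it was measured.

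RNA from each mouse was hybridized to its own one-color array, on which a value is the brightness of a spot. Values below are log2 signals relative to the 75th percentile of the same array, and differences are AP minus vehicle on this log2 scale. Per array, 46.4 to 49.0% of the spots were well above background, and 0 spots were saturated. All 4 arrays lay on 1 slide, and the place of an array on the slide cannot be told apart from the treatment. Of 5 ISR genes checked, 4 were higher in both AP-treated mice than in both vehicle-treated mice (80%, against 20.1% of all named genes tested). These were Trib3, Chac1, Ddit3 and Asns, and the groups overlapped for the other gene. Trib3 was 2.78 and 2.33 with vehicle and 6.26 and 8.01 with AP. The 2 AP-treated mice differed: all 5 ISR genes were highest in AP replicate 2 and lowest in vehicle replicate 2. The median of AP replicate 2 minus AP replicate 1 was 1.19 over the 5 genes. Summed on the linear scale, these genes were 237 and 106 with vehicle and 300 and 699 with AP. The tissue carried its markers: Ucp1 was 10.41 and 9.66 with vehicle and 9.66 and 10.25 with AP, and all 10 brown fat markers were well above background on all 4 arrays. All 23 skeletal muscle markers were highest in vehicle replicate 2 and lowest in vehicle replicate 1, and their summed linear level was 111 and 1420 with vehicle and 888 and 519 with AP. All 10 leukocyte markers that were measured were also highest in vehicle replicate 2, with summed levels of 44.1 and 144 with vehicle and 54.4 and 50.7 with AP. In tissue, fewer cells of a type and less RNA per cell cannot be told apart.

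The promoters of the genes were searched for the sites of factors known to control them, since members of the chain are transcribed from separate places in the genome. NRF1 and GABPA are the textbook regulators of nuclear respiratory genes, ERR alpha acts with PGC-1 coactivators in brown fat, YY1 binds many of the same promoters, and the C/EBP-ATF composite element is bound by ATF4. A promoter of 300 bases, 250 before to 50 after the start, was in the RefSeq table for 62 of the 78 genes. The NRF1 letters GCGCNTGCG were present on either strand in 18 of the 62 (29%), against 7.12% of the 27025 genes in the table, and these letters nearly read the same on both strands, so that matches on the 2 strands can overlap. The GABPA letters CCGGAAG were present in 13 of 62 (21%) against 9.93%, the YY1 letters AAGATGGCG in 6 of 62 (9.68%) against 1.64%, and the ERR alpha letters TNAAGGTCA in 2 of 62 (3.23%) against 1.43%. At least 1 of these 4 was present in 32 of 62 (51.6%), against 17.9% of all genes. The C/EBP-ATF letters TGATGNAA were in 0 of 62 promoters, against 4.51% of all genes. The members' promoters were also richer in CpG, with a median of 19.5 CpG in the window against 7 over all genes, and a median GC content of 58.7% against 52.7%, and this was not adjusted for. The presence of the letters in a window says nothing of binding in these mice.

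The 250 bases before the start are shown for 7 genes, from the RefSeq table of build GRCm38.p6 and read 5′ to 3′ on the strand of the gene, with matches in capitals. Cycs holds the NRF1 letters, Sdhd the NRF1 and GABPA letters, Ndufb4 the NRF1 and ERR alpha letters, Ndufb7, which had the lowest difference among the subunits of complex I, the GABPA letters, and Cox6a1 the NRF1 and GABPA letters. Cox7a1 and Cox8b, the muscle and brown fat isoforms of complex IV, hold none of the letters searched in this stretch. Their ubiquitous counterparts Cox7a2 and Cox8a hold none in this stretch either. The longer window counted above, which runs past the start, does hold the GABPA letters for Cox8a and the ERR alpha letters for Sdhd.
Cycs, chr6:50566570-50566819, minus strand: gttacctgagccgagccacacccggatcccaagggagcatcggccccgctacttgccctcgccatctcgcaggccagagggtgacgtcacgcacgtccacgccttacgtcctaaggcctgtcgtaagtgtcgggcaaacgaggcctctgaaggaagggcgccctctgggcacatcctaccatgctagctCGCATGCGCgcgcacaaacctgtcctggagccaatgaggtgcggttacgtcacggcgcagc
Sdhd, chr9:50603850-50604099, minus strand: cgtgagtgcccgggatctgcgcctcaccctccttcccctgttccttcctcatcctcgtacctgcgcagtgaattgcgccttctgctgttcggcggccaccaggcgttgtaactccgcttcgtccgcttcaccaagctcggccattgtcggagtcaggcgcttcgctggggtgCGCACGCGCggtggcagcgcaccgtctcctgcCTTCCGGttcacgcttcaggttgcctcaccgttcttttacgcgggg
Ndufb4, chr16:37654369-37654618, minus strand: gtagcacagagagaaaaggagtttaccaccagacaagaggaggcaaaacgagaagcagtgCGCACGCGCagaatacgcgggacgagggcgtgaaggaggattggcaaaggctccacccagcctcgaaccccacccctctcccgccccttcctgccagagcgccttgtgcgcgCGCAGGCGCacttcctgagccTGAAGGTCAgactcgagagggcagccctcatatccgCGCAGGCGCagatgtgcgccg
Ndufb7, chr8:83566508-83566757, plus strand: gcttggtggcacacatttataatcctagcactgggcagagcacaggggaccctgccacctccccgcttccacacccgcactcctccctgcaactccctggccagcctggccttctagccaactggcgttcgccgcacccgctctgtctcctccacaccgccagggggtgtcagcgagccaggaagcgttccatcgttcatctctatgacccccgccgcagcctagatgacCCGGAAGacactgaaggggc
Cox6a1, chr5:115348959-115349208, minus strand: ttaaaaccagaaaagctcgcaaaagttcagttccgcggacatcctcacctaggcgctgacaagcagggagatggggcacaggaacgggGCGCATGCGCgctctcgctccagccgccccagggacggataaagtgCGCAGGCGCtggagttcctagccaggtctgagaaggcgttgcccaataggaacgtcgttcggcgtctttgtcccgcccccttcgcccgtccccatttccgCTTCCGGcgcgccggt
Cox7a1, chr7:30183921-30184170, plus strand: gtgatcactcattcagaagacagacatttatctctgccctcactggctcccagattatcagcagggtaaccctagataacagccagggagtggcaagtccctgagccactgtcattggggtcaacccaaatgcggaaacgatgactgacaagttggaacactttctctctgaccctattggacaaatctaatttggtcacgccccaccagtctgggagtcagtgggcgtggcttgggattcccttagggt
Cox8b, chr7:140900447-140900696, minus strand: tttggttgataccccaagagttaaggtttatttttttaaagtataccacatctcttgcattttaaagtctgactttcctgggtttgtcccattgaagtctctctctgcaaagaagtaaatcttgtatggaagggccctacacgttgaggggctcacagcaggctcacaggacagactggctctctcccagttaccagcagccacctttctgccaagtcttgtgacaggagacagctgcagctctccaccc

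No gene of the respiratory chain differed between AP-treated and vehicle-treated mice after adjustment for multiple tests, and none was higher in both AP-treated mice than in both vehicle-treated mice. The median difference over the 76 genes measured was -0.019 on the log2 scale, against 0.011 over all 12791 named genes tested, with 31 genes above 0 and 45 below (59.2% below 0, against 48.6% of all named genes). Apart from Cox6a2 the differences ran from -0.54 for Ndufb7 to 0.47 for Ndufa1. By limma with Benjamini-Hochberg adjustment over all probes tested, 0 of the 76 genes were called at an adjusted p of 0.05, against a background of 0% of 12791 named genes and 0% of 24973 probes, and the smallest adjusted p on the array was 0.80. Before adjustment, 6.07% of probes had a limma p under 0.05. Of the 76 genes, 0 were under this limit and higher with AP (background 3.78% of named genes), and 1, Ndufb7, was under it and lower with AP (background 2.26%). Both AP-treated mice lay above both vehicle-treated mice for 0 of 76 genes (background 20.1%) and below them for 13 of 76, or 17.1% (background 17.3%). The share with AP below was thus near the background. These counts depended on single mice and on the scaling: without vehicle replicate 1 the AP-treated mice lay above the remaining vehicle-treated mouse for 55 of 76 genes (background 42.1% of named genes), and without vehicle replicate 2 below it for 71 of 76 (background 37%). With normexp background correction 23 genes had both AP-treated mice below (background 16.7%), in the log2 table of the authors 44 did (background 29.7%), and with quantile normalization 16 genes had both above (background 20.6%). Leaving out vehicle replicate 1 put the median over the members at 0.18, and leaving out vehicle replicate 2 put it at -0.23. It was -0.18 in the table of the authors, where that of all named genes was -0.15, and 0.065 with the median of each array as the scale, where that of all named genes was 0.095. A p that misses the threshold does not show equal levels. The 95% interval of the difference lay within a 2-fold change either way for 64 of 76 genes (84.2%, against 53.0% of all named genes). It did not reach a 2-fold rise for 71 genes and did not reach a 2-fold fall for 68. The members were brighter: 43 of 76 had a mean log2 signal of 8 or more, against 204 of the 12791 named genes. These shares were not matched for signal. For 2 mice against 2, 0.333 is the smallest two-sided p that exact permutation of the mice allows for any gene.

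**Figure D1:**
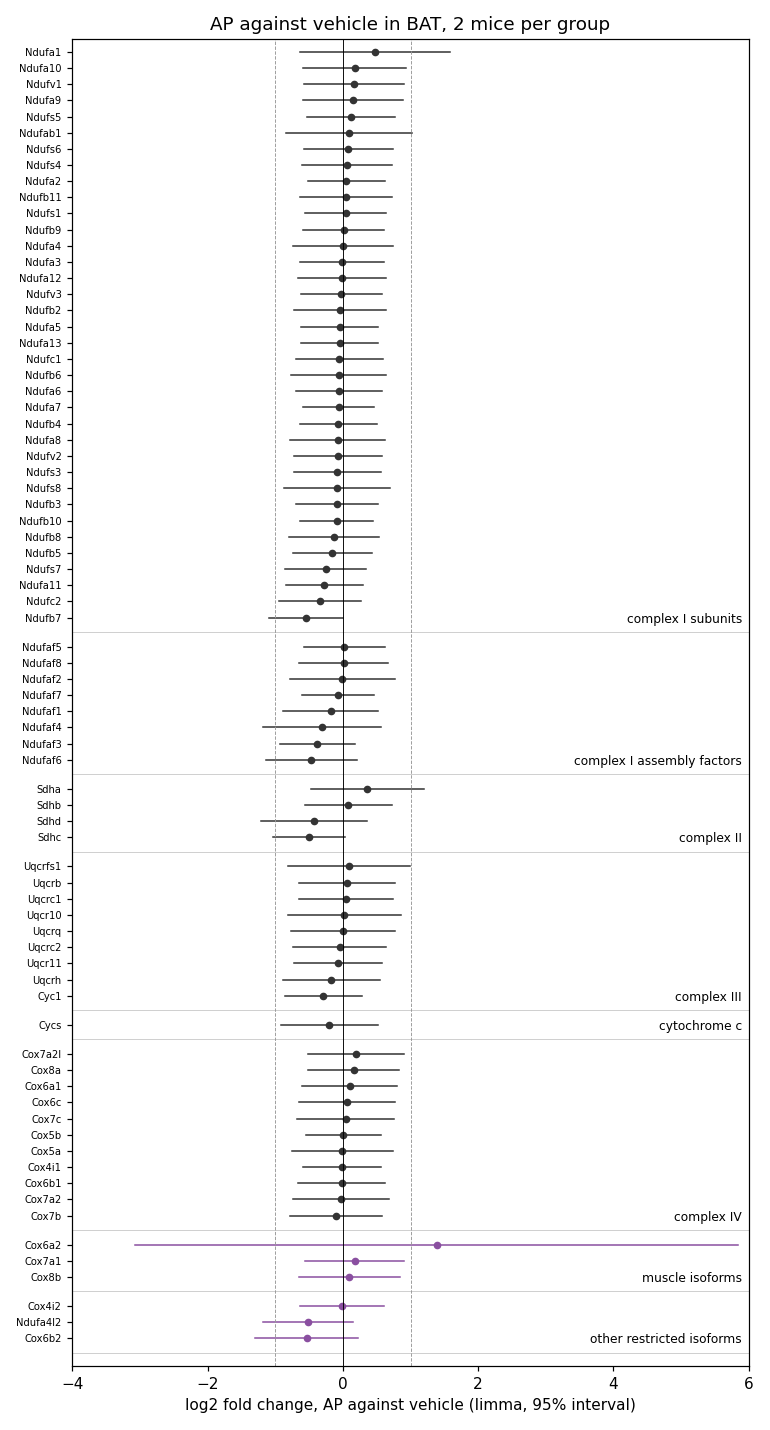
Log2 fold change of 75 of the 76 respiratory chain genes, AP against vehicle (points, 2 mice per group), with the 95% interval of limma (bars), grouped by complex, without 1 subunit of complex I that is not reported here; dashed lines mark a 2-fold change either way. The points lie between -0.54 and 0.47 except for Cox6a2 at 1.39, whose interval runs from -3.07 to 5.85.

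**Figure D2:**
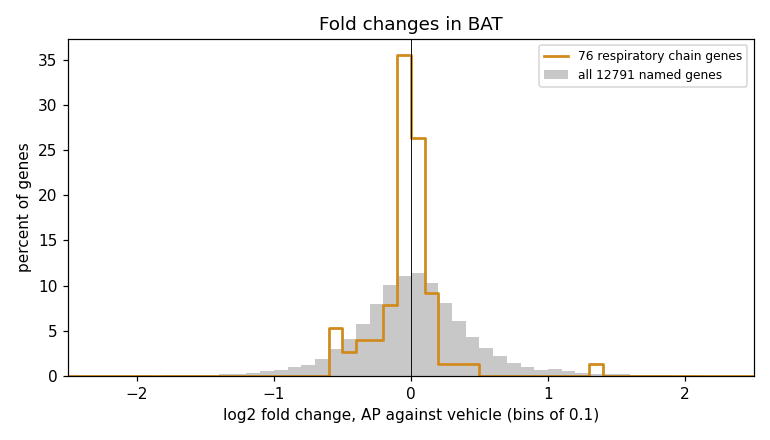
Distribution of the log2 fold change, AP against vehicle, in bins of 0.1 (x axis) as a percent of genes (y axis), for all 12791 named genes (bars) and the 76 respiratory chain genes (line). The respiratory chain genes gather near 0, with a median of -0.019.

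Complex I has the most subunits, and its 37 genes had a median difference of -0.047, with 14 above 0 and 23 below. Ndufb7, an accessory subunit of the membrane arm, was 8.57 and 8.52 with vehicle and 7.92 and 8.08 with AP. Both AP-treated mice were below both vehicle-treated mice, and the vehicle-treated mice were close to each other. The difference was -0.54 (standard error 0.21, 0.686-fold), with an unadjusted limma p of 0.04997 and an adjusted p of 0.80, and the unadjusted p rose above 0.05 when dim probes were kept, when a replicate block was added, and when arrays were scaled by quantiles or by their median. Ndufc2, another accessory subunit of the membrane arm, was 8.13 and 7.84 with vehicle and 7.55 and 7.73 with AP, a difference of -0.34 (standard error 0.23). Ndufa11, also in the membrane arm, was 5.69 and 5.62 with vehicle and 5.25 and 5.51 with AP, a difference of -0.27 (standard error 0.22). Both genes were lower in both AP-treated mice, and neither passed the test (adjusted p from limma 0.81 and 0.83).

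At the other end stood Ndufa1, an accessory subunit that complex I needs for its assembly. Ndufa1 was 9.22 and 8.10 with vehicle and 9.12 and 9.14 with AP, a difference of 0.47 (standard error 0.42). Vehicle replicate 2 was low and the other 3 mice were within 0.12 of each other, and without that mouse the difference was -0.09. Ndufa10, an accessory subunit of the membrane arm, was 7.09 and 6.48 with vehicle and 7.05 and 6.88 with AP, a difference of 0.18 (standard error 0.29). The groups overlapped for both genes, and both differences turned below 0 without vehicle replicate 2.

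Ndufs7, a core subunit that carries an iron-sulfur cluster, was 8.71 and 8.74 with vehicle and 8.30 and 8.63 with AP, a difference of -0.26 (standard error 0.23), and both AP-treated mice were below both vehicle-treated mice. Ndufa4, which is named for complex I but is now known as a subunit of complex IV, was 8.57 and 7.98 with vehicle and 8.29 and 8.27 with AP. Its groups overlapped, with both AP-treated mice between the vehicle-treated mice. The other subunits of complex I whose groups did not overlap were Ndufa7, Ndufb5 and Ndufb10, with differences of -0.06, -0.16 and -0.09, and a second probe of Ndufb5 gave a difference of 0.31.

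The 8 assembly factors of complex I help build the complex and are not part of it. Their median difference was -0.12, with 2 above 0 and 6 below. Ndufaf6, which takes part in the early assembly of the arm that binds coenzyme Q, was 2.83 and 3.03 with vehicle and 2.25 and 2.69 with AP, a difference of -0.47 (standard error 0.25, adjusted p from limma 0.80). Ndufaf3, which works together with Ndufaf4, was 3.45 and 3.35 with vehicle and 2.93 and 3.11 with AP, a difference of -0.38 (standard error 0.21, adjusted p from limma 0.80). Both factors were lower in both AP-treated mice. Ndufaf4 was 4.11 and 4.12 with vehicle and 3.41 and 4.20 with AP, a difference of -0.31 (standard error 0.33). AP replicate 1 was the low mouse and AP replicate 2 the highest of the 4, so the groups overlapped. Ndufaf8, Ndufaf5 and Ndufaf2, the 3 highest, had differences of 0.011, 0.023 and -0.0067, and none of them had groups apart. The 2 factors that modify core subunits, Ndufaf5 and Ndufaf7, had differences of 0.023 and -0.07.

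Complex II, or succinate dehydrogenase, is made of the flavoprotein Sdha, the iron-sulfur protein Sdhb and the membrane anchors Sdhc and Sdhd. It had a median difference of -0.17 over 4 genes, with both anchors below 0 and both catalytic subunits above. Sdhc was 7.08 and 7.06 with vehicle and 6.53 and 6.62 with AP, a difference of -0.50 (standard error 0.20, 0.707-fold). The mice of each group were within 0.10 of each other and the groups did not overlap, with an unadjusted limma p of 0.059 and an adjusted p of 0.80. A second probe of Sdhc gave a smaller difference of -0.20. Sdhd was 8.86 and 8.28 with vehicle and 7.98 and 8.32 with AP, a difference of -0.42 (standard error 0.30), and its groups overlapped, with AP replicate 2 just above vehicle replicate 2. Sdha was 8.26 and 7.51 with vehicle and 8.26 and 8.22 with AP, a difference of 0.36 (standard error 0.32), with vehicle replicate 2 as the low mouse. Sdhb was 9.85 and 9.44 with vehicle and 9.67 and 9.78 with AP, a difference of 0.08 (standard error 0.24), with both AP-treated mice between the vehicle-treated mice.

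Complex III passes electrons from coenzyme Q to cytochrome c, and its 9 genes had a median difference of -0.0044. Cyc1, the cytochrome c1 subunit, was 9.16 and 8.93 with vehicle and 8.70 and 8.81 with AP, a difference of -0.29 (standard error 0.22, adjusted p from limma 0.82). It was the 1 gene of complex III with both AP-treated mice below both vehicle-treated mice. Uqcrh, the hinge protein, and the small subunit Uqcr11 followed with differences of -0.17 and -0.07 and overlapping groups. The 3 highest were Uqcrfs1, the Rieske iron-sulfur protein, with a difference of 0.09, Uqcrb with 0.058 and the core protein Uqcrc1 with 0.045. Uqcrfs1 was 8.63 and 7.84 with vehicle and 8.18 and 8.45 with AP, so that the vehicle-treated mice lay on both sides of the AP-treated mice. Cycs, the cytochrome c that carries the electrons to complex IV, was 9.34 and 8.93 with vehicle and 8.75 and 9.12 with AP, a difference of -0.20 (standard error 0.27). Of its 3 probes, another bright one gave -0.09. The third gave 0.45 (standard error 0.66) but was dim, at -0.67 and -2.48 with vehicle and -0.85 and -1.39 with AP.

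Complex IV reduces oxygen, and its catalytic core is encoded in mitochondria. Its 11 ubiquitous nuclear subunits had the smallest spread of the complexes with over 4 genes, with a median difference of 0.0057 and a range from -0.10 to 0.20. The groups overlapped for all 11. Cox7a2l, grouped here by its name and known from supercomplexes of complexes III and IV, was highest. It was 7.51 and 6.97 with vehicle and 7.39 and 7.48 with AP, a difference of 0.20 (standard error 0.27). Cox8a and Cox6a1 followed with differences of 0.16 and 0.10 (standard errors 0.25 and 0.27). Cox7b was lowest, at 9.29 and 8.79 with vehicle and 8.91 and 8.97 with AP, a difference of -0.10 (standard error 0.26). Cox7a2 and Cox6b1 came next, with differences of -0.028 and -0.020.

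The members differed more between the vehicle-treated mice than between the groups. Vehicle replicate 1 was the highest of the 4 mice for 67 of 76 genes (88.2%, against 28.3% of all named genes), and vehicle replicate 2 was the lowest for 55 of 76 (72.4%, against 35.9%). In complex IV this held for 11 of 11 and 11 of 11 genes, in complex III for 9 of 9 and 8 of 9, and among the subunits of complex I for 35 of 37 and 29 of 37. It held less widely elsewhere: among the assembly factors of complex I for 6 of 8 and 3 of 8, with AP replicate 1 lowest for the other 5, and in complex II for 3 of 4 and 2 of 4. Cycs was highest in vehicle replicate 1 and lowest in AP replicate 1, and the 3 other restricted isoforms that were measured were all highest in vehicle replicate 2. The median of vehicle replicate 2 minus vehicle replicate 1 was -0.44 over the 76 genes and -0.10 over all named genes, while AP replicate 2 minus AP replicate 1 was 0.058 and -0.012. Both AP arrays lay between the vehicle arrays: the median over the 76 genes was -0.26 and -0.19 against vehicle replicate 1 for the 2 AP arrays, and 0.15 and 0.19 against vehicle replicate 2. The size of the difference between the groups was larger than the difference within either group for 8 of 76 genes, or 10.5%, against 24.7% of all named genes, and these were Ndufb7, Ndufc2, Ndufa11, Ndufaf3, Ndufaf6, Sdhc, Cyc1 and Ndufa4l2.

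This order of the arrays also depended on the signal and on the scaling. The 75th percentile that served as the scale was 119 and 159 with vehicle and 128 and 118 with AP. It was thus highest in vehicle replicate 2, which lowers all relative signals of that array. The order without any scaling was not computed. Over all named genes, the median of vehicle replicate 2 minus vehicle replicate 1 was 0.014 where the mean log2 signal was below 0, -0.29 for signals from 6 to 8 and -0.33 for signals of 8 or more. Of the 76 members, 43 were in the last range and 19 in the range before it, with medians of -0.44 and -0.50. Vehicle replicate 1 was highest for 62.7% of the 204 named genes with a signal of 8 or more. The 43 members are among these 204 genes, so this share and the medians of the ranges include the members, and values without them were not computed. With quantile normalization, vehicle replicate 1 was highest for 32 of 76 members and the median of vehicle replicate 2 minus vehicle replicate 1 was -0.12. In the log2 table of the authors, vehicle replicate 2 was lowest for 14 of 76 members and the median was -0.18. Over 6 scalings or sources this median stayed below 0, between -0.50 and -0.12. The muscle, leukocyte and erythroid markers moved between the same mice, and the summed level of the 3 erythroid markers was 774 and 466 with vehicle and 376 and 516 with AP. The 10 brown fat markers moved between the vehicle-treated mice too, with summed levels of 4185 and 2482 with vehicle and 3128 and 3856 with AP and a median of vehicle replicate 2 minus vehicle replicate 1 of -0.51, and 6 of the 10 were highest in vehicle replicate 1. For other markers this signed median was 0.043 over 5 adipocyte markers, 0.16 over 4 endothelial markers and -0.095 over 3 white fat markers. The adipocyte markers went both ways, and the median absolute difference between the vehicle-treated mice was 0.31 for them. It was 0.18 for the endothelial and 0.18 for the white fat markers. Summed levels of the adipocyte markers were 2554 and 2018 with vehicle and 2266 and 2382 with AP. The part of any of these markers in the order of the arrays was not tested.

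**Figure D3:**
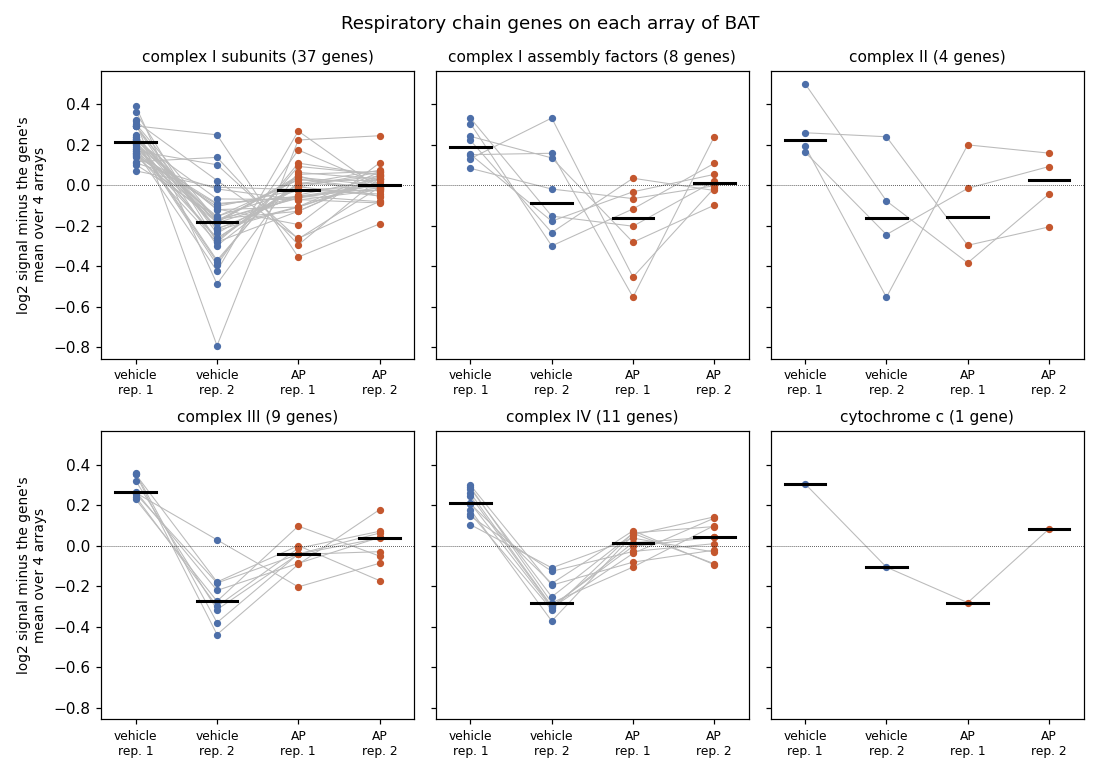
Log2 signal of each respiratory chain gene minus its own mean over the 4 arrays (y axis) on each array (x axis; blue, vehicle; orange, AP), with 1 gray line per gene and a black bar for the median of the genes. In complexes III and IV all 20 genes are highest in vehicle replicate 1, and the medians of the AP arrays lie between those of the vehicle arrays. Cyc1 of complex III has both AP arrays below both vehicle arrays. For the complex I assembly factors and cytochrome c, AP replicate 1 is lowest, with medians of -0.16 and -0.28.

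**Figure D4:**
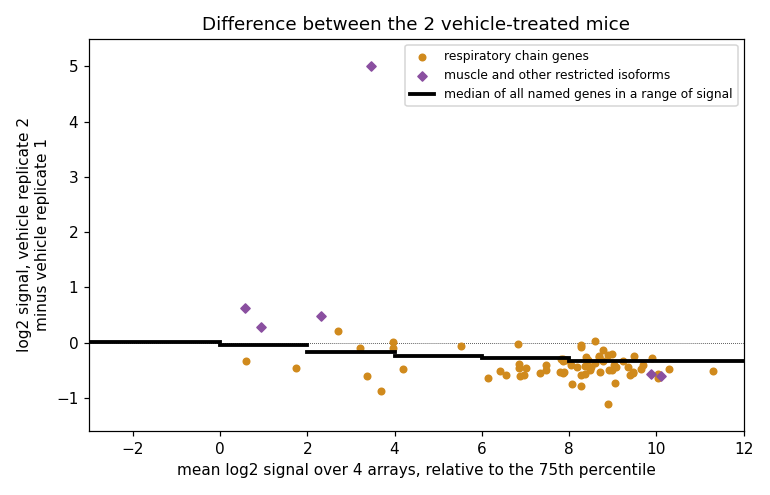
Vehicle replicate 2 minus vehicle replicate 1 in log2 signal (y axis) against the mean log2 signal of the gene over 4 arrays (x axis), for the 76 respiratory chain genes (points and diamonds) and as the median of all named genes in ranges of signal (black bars). The bars step down from 0.014 to -0.33 as the signal rises, most members lie at a signal above 6, and Cox6a2 is the diamond far above 0.

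Some subunits of complex IV have an isoform known from heart and skeletal muscle beside the ubiquitous form, 3 of them here, and these isoforms did not move alike. Cox6a2 was 0.26 and 5.28 with vehicle and 4.43 and 3.87 with AP. It was lowest in vehicle replicate 1 and highest in vehicle replicate 2, the order of all 23 skeletal muscle markers, among them Acta1 at 2.49 and 6.81 with vehicle and 6.05 and 5.11 with AP. The difference of Cox6a2 between the groups was 1.39 (standard error 1.68, adjusted p from limma 0.87), and leaving out vehicle replicate 1 gave -1.12 while leaving out vehicle replicate 2 gave 3.89. Its ubiquitous counterpart Cox6a1 was 11.52 and 11.00 with vehicle and 11.27 and 11.44 with AP. Vehicle replicate 2 was thus highest for Cox6a2 and lowest for Cox6a1. The part of muscle RNA in the values of Cox6a2 was not tested.

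Cox7a1 and Cox8b, which brown fat is known to express as well, ran with the rest of the chain. Cox7a1 was 10.08 and 9.50 with vehicle and 9.93 and 10.01 with AP, a difference of 0.18 (standard error 0.28), beside its counterpart Cox7a2 at 8.16 and 7.62 with vehicle and 7.94 and 7.79 with AP. Cox8b was 10.36 and 9.75 with vehicle and 10.14 and 10.16 with AP, a difference of 0.09 (standard error 0.28), beside Cox8a at 10.45 and 9.97 with vehicle and 10.35 and 10.38 with AP. All 4 were highest in vehicle replicate 1 and lowest in vehicle replicate 2, where the muscle markers were highest. The promoters of Cox7a1 and Cox8b printed above hold 4 and 1 CpG, against 14 and 11 in the same stretch of Cox7a2 and Cox8a.

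**Figure D5:**
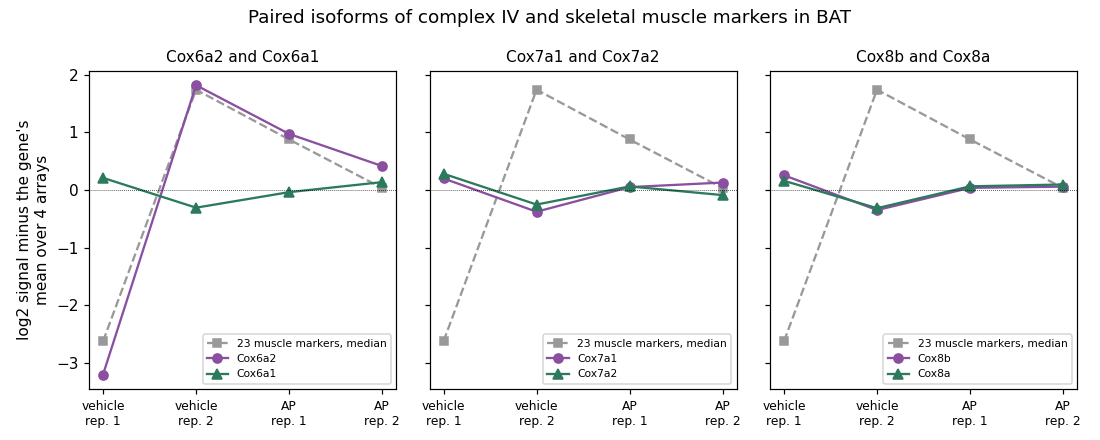
Log2 signal minus the mean of the gene over 4 arrays (y axis) on each array (x axis) for Cox6a2, Cox7a1 and Cox8b (purple circles), their ubiquitous counterparts (green triangles) and the median of 23 skeletal muscle markers (gray squares). Cox6a2 goes from -3.20 in vehicle replicate 1 to 1.82 in vehicle replicate 2 with the markers, and Cox7a1 and Cox8b keep with their counterparts.

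The other isoforms of restricted expression included 3 that were well above background on all 4 arrays. Ndufa4l2, a relative of Ndufa4 known from hypoxia, was 2.33 and 2.81 with vehicle and 2.07 and 2.04 with AP, a difference of -0.51 (standard error 0.25, adjusted p from limma 0.80). Cox6b2, known from testis, was 0.52 and 1.14 with vehicle and 0.26 and 0.34 with AP, a difference of -0.53 (standard error 0.29, adjusted p from limma 0.80). Both were lower in both AP-treated mice, and both were highest in vehicle replicate 2. Cox4i2, an isoform known from lung, was 0.80 and 1.09 with vehicle and 1.05 and 0.80 with AP, with overlapping groups and a difference of -0.018 (standard error 0.23).

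The genes around the chain were read from the same fit, and 0 of them passed the adjusted threshold. Of 20 genes of ATP synthase, its inhibitor and its assembly factors, 8 were above 0 and 12 below, with a median difference of -0.030. Vehicle replicate 1 was highest for 15 of the 20. Atp5k, a membrane subunit, was lowest, at 8.98 and 8.69 with vehicle and 8.60 and 8.48 with AP, a difference of -0.29 (standard error 0.22). Atpaf1, an assembly factor, was not well above background with vehicle, so its measured difference is given only as a bound, 1.5-fold higher with AP. The bound sets the mean of the AP arrays against a vehicle level. That level is the lowest signal well above background on each vehicle array, or the own signal of the probe if higher. A rise was not established, with an adjusted p from limma of 0.80 and a limma interval from -0.18 to 3.25 for the log2 difference. The probe was dim on all arrays, at -3.85 and -5.72 with vehicle and -3.28 and -3.23 with AP. Of 39 further assembly factors of complexes I to IV, 20 were above 0 and 19 below, with a median of 0.0090. Coa4, known for the assembly of complex IV, was -0.0075 and 0.43 with vehicle and 1.15 and 0.76 with AP, a difference of 0.74 (standard error 0.28, unadjusted limma p 0.048, adjusted 0.80), and Cox19, another factor for complex IV, was 5.58 and 4.66 with vehicle and 3.87 and 4.46 with AP, a difference of -0.96 (standard error 0.41, adjusted p from limma 0.80).

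Among 19 genes for the synthesis of coenzyme Q or the entry of electrons at coenzyme Q, 7 were above 0 and 12 below, with a median of -0.08. Pdss1, which builds the tail of coenzyme Q, was 0.50 and 0.38 with vehicle and -0.65 and -0.01 with AP, a difference of -0.77 (standard error 0.29, adjusted p from limma 0.80), and Pdss2, its partner, had a difference of -0.42. Both were lower in both AP-treated mice. Etfdh, which delivers electrons from fatty acid oxidation, was 7.67 and 6.63 with vehicle and 7.79 and 7.55 with AP, a difference of 0.52 (standard error 0.40), with vehicle replicate 2 as the low mouse. Of 15 regulators of mitochondrial biogenesis, 10 were above 0 and 5 below, with a median of 0.20, and 5 (33.3%, background 20.1%) had both AP-treated mice on the upper side (Nrf1, Gabpa, Tfam, Tfb1m and Yy1) and 2 (13.3%, background 17.3%) on the lower side (Esrra and Esrrb). Tfb1m, which modifies mitochondrial ribosomal RNA, was 2.15 and 1.99 with vehicle and 2.72 and 2.55 with AP, a difference of 0.56 (standard error 0.21, unadjusted limma p 0.050, adjusted 0.80). Nrf1, the factor whose letters stand in 18 promoters of the chain, was 0.22 and 0.34 with vehicle and 0.69 and 0.97 with AP, a difference of 0.55 (standard error 0.22, adjusted p from limma 0.80). Esrrb was lowest, with a difference of -0.37 (standard error 0.22).

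Among the 17 members with more than 1 probe well above background, 7 had probes on both sides of 0, namely Cox7c, Cycs, Ndufb5, Ndufb11, Ndufv3, Uqcr10 and Uqcrb. In Cycs, Cox7c and Ndufb11 the probe on the other side of 0 was much dimmer than the rest. The widest gaps between probes were 0.65 for Cycs, from its dim probe, and 0.46 for Ndufb5, while the probes of Sdhb, Uqcrq, Uqcrh and Cox8a lay within 0.03 of each other.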

How the data were processed

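BAT of 2 vehicle-treated and 2 AP-treated Tg mice was measured on one-color Agilent arrays. Scans were extracted by the authors in Feature Extraction 10.7.1.1, per the labels, and the deposited intensity of each spot is background-subtracted and not normalized between arrays. A log2 table of the same arrays was deposited too, with scaling and centring not stated (column medians of -0.28, -0.16, -0.44 and -0.29), which was used as an alternative. Differences between its arrays followed those used here (lowest r 0.9998 over 24868 probes).

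Processed intensities were log2-transformed and set against the 75th percentile of their array, without control spots and outlier spots, and averaged per probe. The test used the 24973 probes with both mice of 1 group or more well above background. Groups were compared by limma 3.58.1 (lmFit, eBayes; R 4.3.3), with Benjamini-Hochberg adjustment over all probes and a threshold of 0.05. The fit was tested on simulated data. Probes were named by accession through a RefSeq gene table (GRCm38.p6, used for names since the array design was made on another build), which named 26582 probes, and the probe with the highest mean signal stood for a gene. Promoters were searched with Python 3.11.15.

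The members and lists were chosen with earlier results of these data known. The genes named are all of complex II and Cycs, the isoform pairs, the 3 highest and 3 lowest of each larger group, members under an unadjusted p of 0.05, and the ends of each other list, without 1 gene that is not reported here. Genes named for groups that did not overlap, Ndufa4, Ndufaf7, Pdss2, Nrf1 and Acta1 were added after their values were seen. The labels do not state separate litters or cages, so p-values measure the spread between these mice. The arrays shared 1 slide and 1 scan, so neither was a block. Precision is limited by the number of arrays. The normexp alternative used the median spot signal.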

Additional observations from a re-analysis of the deposited data

How the results depend on the processing

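Under every alternative run, 0 respiratory chain genes and 0 probes passed an adjusted p of 0.05. The count of genes lower with AP at an unadjusted p under 0.05, 1 in the report, was 4 with normexp background correction, 2 with the authors' log2 table, a variance trend, the 75th percentile over probes detected on all arrays or the methods' t-test (unadjusted, and 0 after Benjamini-Hochberg), 0 with quantile normalization, the median of each array or no filter, and 0 with the replicate block or the crossed replicate block. The samples share only a number: deviations of same-numbered mice correlated with an r of -0.13, the replicate block moved the probes under an unadjusted p of 0.05 from 1515 to 1226, and the crossed block, chosen after seeing the data, to 1566. Both AP-treated mice lay above both vehicle-treated mice for 1 gene with normexp (background 21.1% of named genes) and 1 with no filter (background 21.6%). This held for 16 genes with quantile normalization (background 20.6%). They lay below for 23 with normexp (background 16.7%) and 44 with the authors' table (background 29.7%). Over all probes tested, higher or lower with AP, 1515 were under an unadjusted p of 0.05 in the report. The count was 1589 with normexp, 1827 with the authors' table, 1485 with a variance trend and 1614 with the 75th percentile over detected probes. It was 1478 with the t-test, 1540 with quantile normalization, 1439 with the median of each array and 2610 with no filter. The share of named genes lower with AP under this limit was not computed for the alternatives. The median difference of all named genes was 0.095 with the median of each array, 0.073 with no filter and -0.15 with the authors' table, where that of the complex I assembly factors was -0.28, and the median of the other restricted isoforms was -0.018 with no filter. Vehicle replicate 1 was highest for 32 members with quantile normalization, and vehicle replicate 2 lowest for 14 with the authors' table (scalings of this order were chosen after seeing the data). Leaving out 1 mouse at a time, the counts ran from 0 to 1 for genes higher and 0 to 3 for genes lower at an unadjusted p under 0.05, from 1 to 55 for genes with AP above, from 14 to 71 for genes with AP below, and from 1003 to 2178 for probes under an unadjusted p of 0.05. The medians ran from -0.23 to 0.18 for all members, -0.19 to 0.18 for complex I subunits, -0.31 to 0.023 for its assembly factors, -0.32 to 0.073 for complex II, -0.31 to 0.30 for complex III, -0.22 to 0.28 for complex IV, -0.11 to 0.40 for the muscle isoforms, -0.75 to -0.22 for the other restricted isoforms and -0.018 to 0.064 for all named genes. Of 57 genes named and recomputed, those that changed sign when a mouse was left out ran from -0.013 to 0.73 for Sdha, -0.12 to 0.28 for Sdhb, -0.40 to 0.00669 for Cycs, -1.12 to 3.89 for Cox6a2, -0.11 to 0.47 for Cox7a1, -0.21 to 0.40 for Cox8b, -0.16 to 0.36 for Cox6a1, -0.30 to 0.24 for Cox7a2, -0.0802 to 0.40 for Cox8a, -0.16 to 0.12 for Cox4i2, -0.0789 to 0.47 for Cox7a2l, -0.13 to 0.48 for Ndufa10, -0.0868 to 1.03 for Ndufa1, -0.71 to 0.085 for Ndufaf4, -0.31 to 0.30 for Ndufaf2, -0.22 to 0.24 for Ndufaf8, -0.14 to 0.19 for Ndufaf5, -0.44 to 0.093 for Uqcrh, -0.29 to 0.15 for Uqcr11, -0.21 to 0.30 for Uqcrc1, -0.21 to 0.33 for Uqcrb, -0.31 to 0.48 for Uqcrfs1, -0.35 to 0.14 for Cox7b, -0.22 to 0.18 for Cox6b1, -0.29 to 0.30 for Ndufa4, -1.23 to 3.09 for Acta1 and -0.46 to 0.30 for Ucp1. With the authors' table the sign turned for Sdhb (-0.0826), Cox8b (-0.067), Cox6a1 (-0.0635), Cox8a (-0.00400), Ndufaf8 (-0.15), Ndufaf5 (-0.14), Uqcrc1 (-0.12), Uqcrb (-0.10), Uqcrfs1 (-0.076) and Ndufa4 (-0.16), with normexp for Ndufa4 (-0.0438), Cox7a1 (-0.037), Ndufaf5 (-0.0362) and Uqcrc1 (-0.073), with quantile normalization for Cox7a2 (0.00356) and Ndufaf8 (-0.018), with the median of each array for Ndufa7 (0.0219), Ndufaf7 (0.0181), Ucp1 (0.00506), Cox7a2 (0.056), Cox4i2 (0.066), Ndufaf2 (0.078), Uqcr11 (0.012) and Cox6b1 (0.0647), with the 75th percentile over detected probes for Ndufa4 (-0.0323), Ndufaf8 (-0.0247) and Ndufaf5 (-0.012), and with the mean of all probes for Cycs (0.054) and Ndufb5 (0.0756). Scaling by the median of each array or by the 75th percentile over detected probes shifts all genes of an array alike. Each of these 2 scalings therefore changes every difference by the same amount. With the authors' table the median was -0.18 for all members and -0.21 for complex I subunits, against -0.019 and -0.047 in the report. Causes of the changes with the other alternatives were not tested. A block for slide or scan could not be fitted with 1 of each. A group left with 1 mouse was assumed to vary like the other group, and dim probes give only bounds.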
